A study of Medicago ruthenica with 3 samples.

Results

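The transcripts described here encode subunit A of nuclear factor Y (NF-YA) and GRAS proteins, most of them scarecrow-like (SCL) factors, in the leaf degradome of Medicago ruthenica, a drought-tolerant forage legume. Degradome sequencing reads the 5′ ends of polyadenylated RNA that has lost its cap, the form that a transcript takes after cleavage guided by a microRNA (miRNA). An uncapped end can also arise in other ways, and the origin of these ends was not tested. Members were all entries of the deposited table whose annotation names nuclear transcription factor Y subunit A, scarecrow-like or GRAS, or whose gene symbol is NFYA1, NFYA10, SCL6 or SCL15. The rule used no measured value. It found 37 of 11390 entries, on 15 of 6912 transcripts (2 NF-YA and 13 GRAS), with 28 of the 348 small RNAs in the table. For its main target list the paper limits a score of mismatches between small RNA and transcript, which leaves far fewer pairs. No such limit, and none on read category or p-value, was set here. An entry is therefore a listed match and not an established target.

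The leaves came from seedlings that were 4 weeks old when treatment began, grown in pots without added nutrients. The rewatered plants (RW) had water withheld for 15 days and were sampled 2 days after watering to full soil saturation. The drought plants (DS) had water withheld for the same 15 days, to a relative soil moisture of 20%, and the control plants (CK) were kept watered at over 80%. The treatment groups were described as having biological replicates, but there was 1 degradome library per condition, and whether it pooled plants is not given in the sources used here. CK and DS leaves were taken on the same day and RW leaves 2 days later, so age and rewatering cannot be told apart in RW vs. DS and RW vs. CK. The tests compare libraries, not conditions, and cover counting error only, because there was 1 library per condition. The reads carry no molecular identifiers, so amplified copies of 1 molecule count as separate reads and the intervals may be too narrow.

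Nuclear factor Y is a complex of subunits A, B and C that binds CCAAT boxes in promoters, and NF-YA is the subunit that reads the DNA sequence. In plants miR169 guides the cleavage of many NF-YA transcripts. In Arabidopsis the NFYA5 member of this family takes part in drought tolerance, and in Medicago truncatula an NF-YA gene and miR169 act in nodule development. GRAS proteins are plant regulators of transcription that include the DELLA repressors of gibberellin signalling, the root factors SHORT-ROOT and SCARECROW, and the scarecrow-like proteins. miR171 guides the cleavage of the SCL6 group, which in Arabidopsis keeps meristem cells undifferentiated and restrains chlorophyll synthesis.

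The libraries held 29617 table reads in RW, 32719 in DS and 24790 in CK. Values are given as reads and as RPM, reads per 1000000 reads of the table, where 1 read was worth 33.8 RPM in RW, 30.6 in DS and 40.3 in CK. Members held 105 reads in RW (0.355% of the library), 108 in DS (0.330%) and 74 in CK (0.299%). The 4 entries that join NF-YA to a miR169 name or a GRAS transcript to a miR171 name held 155 of these 287 reads, and the other 33 entries held 132. A member entry had a median of 3 reads over the 3 libraries, against 2 for all entries. Values are not scaled by transcript length, so levels are compared between libraries and not between genes. Nor are they corrected for the level of each transcript in a library, whose part in the read counts was not tested.

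NFYA10 was joined to its conserved miRNA by 1 entry, and the value was highest in RW. The transcript (TRINITY_DN25753_c0_g1, annotated as nuclear transcription factor Y subunit A-10) had 27 reads with mtr-miR169h in RW, 14 in DS and 15 in CK. These were 912 RPM in RW (95% Poisson interval 601 to 1326), 428 in DS (234 to 718) and 605 in CK (339 to 998). On this scale the point estimates put RW above CK and CK above DS, and the interval of each library overlapped those of the other two. CK and DS change places when scaled to mapped reads, where DS vs. CK was 1.03 (0.459 to 2.28). RW vs. DS gave a ratio of 2.13 (exact 95% interval 1.08 to 4.40), which did not pass an exact conditional binomial test after Benjamini-Hochberg adjustment over all pairs of a miRNA family and a transcript with at least 10 reads (adjusted p = 0.100). DS vs. CK gave 0.707 (0.316 to 1.57; adjusted p = 0.581 in the same exact test), and RW vs. CK gave 1.51 (0.773 to 3.05; adjusted p = 0.498). RW vs. CK passed only when the libraries were scaled to all mapped reads (2.32, adjusted p = 0.0335 in the exact test, with 0.278 and 0.497 under 2 other scalings). The RW vs. DS interval also left out 1 with mapped reads (2.26, 1.14 to 4.66). It included 1 without scaling (1.93, 0.976 to 3.98) and when scaled by the median ratio over pairs (1.97, 0.995 to 4.06). The only other entry on NFYA10 was 1 read in RW with lja-miR167a_R+1.

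NFYA1, the other NF-YA gene, was listed only in the RW and DS libraries. Its transcript (TRINITY_DN16968_c0_g2, annotated as a CCAAT-binding transcription factor) had 8 reads in RW, 5 in DS and 0 in CK over 3 small RNAs. Of these, ppe-MIR169i-p5_2ss17GT19TG had 4 reads in RW and 1 in DS, mtr-miR396a-5p had 2 in RW and 4 in DS, and nta-miR482a_R-3_1ss19CT had 2 in RW. miR396 and miR482 are known for other targets, growth-regulating factors and immune receptors. Against a floor of 3 reads per library for the 0 in CK, NFYA1 was at least 2.23-fold higher in RW than in CK and at least 1.26-fold higher in DS than in CK. The floor takes the reads in RW and DS as exact, and the lower limits of the exact 95% intervals were ratios of 1.43 and 0.694. Neither comparison with CK reached 10 reads, so neither was tested. RW vs. DS gave 1.77 (0.510 to 6.87; adjusted p = 0.630 in the exact test over transcripts).

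**Figure D1:**
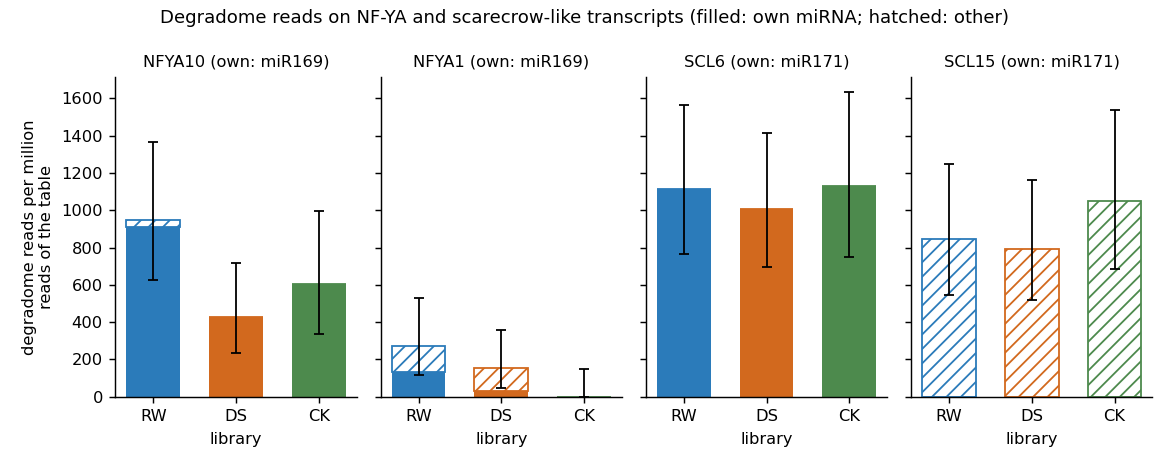
Degradome RPM (y axis) on NFYA10, NFYA1, SCL6 and SCL15 in the RW, DS and CK libraries (x axis), 1 library each, with 95% Poisson intervals of the total. Filled bars are entries named for the miRNA family known for that target group, and hatched bars are all other small RNAs. On NFYA1 the filled part is all of ppe-MIR169i-p5_2ss17GT19TG, a predicted precursor arm. NFYA10 stood at 945 RPM over all its entries in RW, 428 in DS and 605 in CK, SCL6 stood between 1009 and 1129 RPM, and no read on SCL15 was listed with miR171.

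The miR169 names on the NF-YA genes were of different kinds. mtr-miR169h was listed on 9 transcripts, and NFYA10 held 60.9% of its 92 reads, with 16 reads on the next transcript. ppe-MIR169i-p5_2ss17GT19TG, a predicted precursor arm, was listed on 2120 transcripts, which is 30.7% of all those in the table. After its score limit the paper gives far fewer targets for this small RNA, though still the most of any. This small RNA was listed on 4 of the 15 member transcripts (26.7%), and NFYA1 held 5 of its 15974 reads. It took 17.5% of the RW reads, 21.5% of the DS reads and 15.2% of the CK reads, or 17.3%, 18.2% and 14.9% without its transcript with the most reads (TRINITY_DN22919_c0_g2), left out after the data had been seen, which had 92 of these reads in RW, 1298 in DS and 93 in CK. Its part in the NFYA1 reads was not tested further. Summed by name over both genes, miR169 had 31 reads in RW, 15 in DS and 15 in CK. The sum gave 2.28 (1.20 to 4.55) in RW vs. DS, 0.758 (0.345 to 1.66) in DS vs. CK and 1.73 (0.906 to 3.45) in RW vs. CK, and with the table totals the interval of RW vs. DS, which is not corrected for the number of comparisons, left out 1. With mapped reads RW vs. CK was 2.66 (1.40 to 5.31), which also left out 1, and DS vs. CK turned to 1.10 (0.501 to 2.41).

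SCL6, the GRAS gene with the conserved miR171 site in other plants, was listed in all 3 libraries at levels whose intervals overlapped. Its transcript (TRINITY_DN25356_c0_g1) carries the symbol SCL6 but is annotated only as a hypothetical protein. It had 33 reads in RW (1114 RPM; 95% Poisson interval 767 to 1565), 33 in DS (1009; 694 to 1416) and 28 in CK (1129; 751 to 1632). All of these reads were listed with miR171 names. The entry of gma-miR171c-3p_2ss9TC21AT had 32 reads in RW, 30 in DS and 27 in CK, and that of mtr-miR171d had 1, 3 and 1 in the same order of libraries. DS vs. CK gave 0.893 (0.523 to 1.53; adjusted p = 0.879 in the exact test), RW vs. DS gave 1.10 (0.661 to 1.85; adjusted p = 0.871) and RW vs. CK gave 0.986 (0.578 to 1.69; adjusted p = 1.0). The intervals of the 3 ratios reached as low as 0.523 and as high as 1.85, under the table totals. With mapped reads DS vs. CK turned to 1.30 (0.760 to 2.23) and RW vs. CK to 1.52 (0.890 to 2.61), and without scaling both turned to 1.18, with intervals that included 1.

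Small RNAs named for the conserved miRNA family of each group held nearly all reads on SCL6 and NFYA10, a part of those on NFYA1 and none on SCL15. miR171 names held 100% of the SCL6 reads in RW, DS and CK, with exact Clopper-Pearson lower limits of 89.4% in RW and DS and 87.7% in CK. mtr-miR169h held 96.4% of the NFYA10 reads in RW (81.7 to 99.9), 100% in DS (lower limit 76.8%) and 100% in CK (lower limit 78.2%). On SCL15 the share of miR171 was 0 of 25 reads in RW, 0 of 26 in DS and 0 of 26 in CK, with upper limits of 13.7%, 13.2% and 13.2%. NFYA1 differed in kind, with miR169 names, all of ppe-MIR169i-p5_2ss17GT19TG, on 4 of 8 reads in RW (50%, 15.7 to 84.3) and 1 of 5 in DS (20%, 0.505 to 71.6). With shares of 0% or 100% in every library, tests of SCL6 and SCL15 between libraries could show nothing and none is given.

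SCL15, in Arabidopsis a repressor of seed genes in leaves and a relative of the SCL6 group, was listed with 12 small RNAs. No other transcript of the table had as many, and the median was 1. The transcript (TRINITY_DN20423_c0_g2, scarecrow-like protein 15) had 25 reads in RW (844 RPM; 546 to 1246), 26 in DS (795; 519 to 1164) and 26 in CK (1049; 685 to 1537). The totals were close, with ratios of 0.758 (0.423 to 1.36; adjusted p = 0.544 in the exact test over transcripts) in DS vs. CK, 1.06 (0.588 to 1.91; adjusted p = 0.977) in RW vs. DS and 0.805 (0.446 to 1.45; adjusted p = 0.790) in RW vs. CK. Where 1 read was assigned to more than 1 small RNA, such totals hold it repeatedly.

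The small RNAs behind the SCL15 totals were not all the same in each library, at low counts whose differences were mostly not tested. RW had 10 of the 12 small RNAs, DS had 7 and CK had 8, with 5 in all 3 libraries and 4 in 1 library only. Of all entries in the table, 59.7% were in 1 library only, so such gaps are not particular to SCL15. ath-miR8175_L-2_1ss12AG was even, with 5 reads in RW, 4 in DS and 4 in CK. gma-MIR10423-p5_1ss3AC had all of its 6 reads, and mtr-MIR2592bj-p3_2ss12TC19AT all of its 4, in CK. gma-MIR10423-p3_1ss3AC was the reverse, with 3 reads in RW, 4 in DS and 0 in CK, and peu-MIR2916-p5 had 4 reads in RW alone. The miR482 family, known in legumes for its immune receptor targets, had 2 reads on SCL15 in RW, 11 in DS and 3 in CK. It gave 0.201 (0.0216 to 0.920) in RW vs. DS and 2.78 (0.734 to 15.5) in DS vs. CK, and neither passed the exact test. The pair reached the minimum of 10 reads in both comparisons through DS, so these ratios are given as a description. In DS, ghr-miR482a had 6 of the miR482 reads and nta-miR482a_R-3_1ss19CT had 5, and a read listed with both would count repeatedly. ptc-miR472a_R-1_2ss2TC10CT had 6 reads in RW, 5 in DS and 2 in CK, and PC-5p-39746_142 had 1, 1 and 4 in the same order of libraries. The remaining 3 small RNAs on SCL15, of the miR156 and miR2673 families, had 0 to 2 reads per library.

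**Figure D2:**
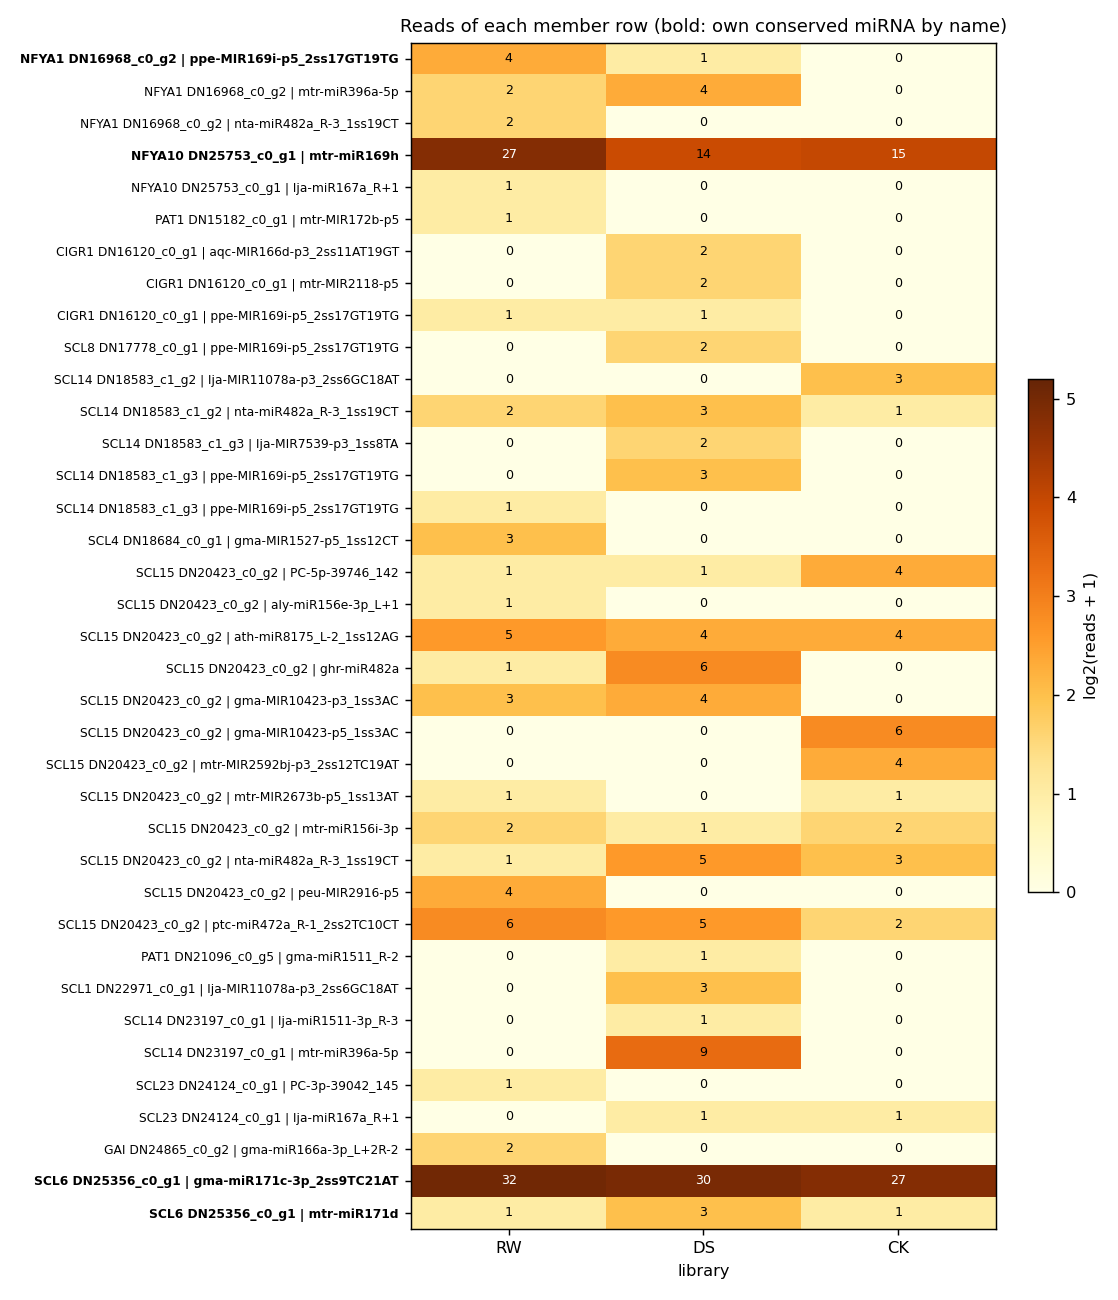
Reads of each of the 37 member entries (rows, with gene symbol, transcript and small RNA) in the RW, DS and CK libraries (columns), coloured by log2(reads + 1), with bold labels for NF-YA with a miR169 name and GRAS with a miR171 name. The entries of gma-miR171c-3p_2ss9TC21AT on SCL6 and of mtr-miR169h on NFYA10 had 14 to 32 reads in every library, while no other entry exceeded 9 reads in a library. Of the 37 entries, 21 (56.8%) were listed in 1 library only, close to the 59.7% of all entries in the table.

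The other 11 GRAS transcripts were listed with 11 reads in RW, 30 in DS and 5 in CK, and none of these reads had a miR171 name. Of the 11 transcripts, 7 were listed in RW, 8 in DS and 2 in CK. Taking all 15 member transcripts, 11 were listed in RW, 12 in DS and 5 in CK, against 64.9%, 61.0% and 51.9% of all transcripts in the table. The 5 listed in CK (NFYA10, SCL6, SCL15, SCL23 and an SCL14 transcript) were listed in all 3 libraries. The CK library had the fewest table reads, and the part of its depth in this count was not tested.

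An SCL14 transcript annotated as scarecrow-like protein 33 (TRINITY_DN23197_c0_g1) was listed in the DS library alone. SCL14 is known in Arabidopsis as a partner of TGA factors in the detoxification response. The transcript had 0 reads in RW, 10 in DS and 0 in CK, so that only DS was above 0. Of the 10 reads, 9 were listed with mtr-miR396a-5p and 1 with lja-miR1511-3p_R-3. With the floor of 3 reads per library it was at least 2.53-fold higher in DS than in CK and at least 3.02-fold lower in RW than in DS. The exact 95% intervals, which count the error of the 10 reads too, reached a ratio of 1.70 in DS vs. CK and 0.493 in RW vs. DS. The transcript reached the minimum of 10 reads through DS alone, so its difference is given as a description. The pair with miR396 alone had 9 reads in DS and fell under the minimum of 10. With a minimum of 5 reads, which it also reached through DS alone, it did not pass the exact test in DS vs. CK or RW vs. DS. Over all its transcripts mtr-miR396a-5p had 148 reads in RW, 180 in DS and 211 in CK. In the RNA sequencing of the paper, the scarecrow-like protein 33 transcript was higher and mtr-miR396a-5p lower in DS vs. CK. The part of that transcript level in the DS reads was not tested.

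The remaining GRAS transcripts had 1 to 9 reads each over the 3 libraries. The other SCL14 transcripts were TRINITY_DN18583_c1_g2, with 2 reads in RW, 3 in DS and 4 in CK, and TRINITY_DN18583_c1_g3, with 1 in RW and 5 in DS. CIGR1, first described in rice as a chitin- and gibberellin-responsive gene, had 1 read in RW and 5 in DS. The paper lists the CIGR1 transcript as higher in DS vs. CK, and mtr-MIR2118-p5, a small RNA listed with it, as lower. SCL23, a relative of SCARECROW, had 1 read in each library. SCL1 had 3 reads and SCL8 had 2, all in DS, and SCL4 had 3 in RW. GAI, a DELLA name, had 2 reads in RW, with a miR166 name. PAT1, a gene of phytochrome A signalling in Arabidopsis, had 1 read in RW on one transcript and 1 read in DS on another. None of these counts exceeded 5 reads in a library.

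Over all member pairs, the calls were few. Of 32 pairs of a miRNA family and a transcript, 4 could be tested in DS vs. CK, 4 in RW vs. DS and 2 in RW vs. CK. None passed the exact test in any comparison, against 21.6%, 19% and 14.9% of all tested pairs. At an unadjusted p under 0.05 there were 0, 2 and 0. The share of all tested pairs under that limit is not given, so nothing is read from this count. At least 2-fold apart were 1, 2 and 0 member pairs, against 47.3%, 44.5% and 38.1% of all tested pairs. SCL15 with miR482 was the pair apart in DS vs. CK and 1 of the 2 in RW vs. DS. It was tested only because of its DS reads. With transcripts in place of pairs, 1 of 4 passed in DS vs. CK (20.2% of all), 1 of 5 in RW vs. DS (18.4%) and 0 of 3 in RW vs. CK (13.3%). Both calls were the SCL14 transcript described above, which was tested only because of its DS reads, and nothing is read from them. The test on transcripts was added after the data had been seen. With so few members tested, these shares were not compared with those of the table.

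Set against the summed reads of other conserved miRNA modules, miR171 with SCL6 differed in DS vs. CK only while AFB2, described below, was in the sum. The comparison used 79 textbook pairs of 20 miRNA families with their targets, which together had 3708 reads in RW, 2031 in DS and 3629 in CK. Their summed ratio was 0.424 (0.401 to 0.448) in DS vs. CK and 2.02 (1.91 to 2.13) in RW vs. DS. The tests against this sum cover counting error only. The spread of ratios among the 79 pairs was not examined, so the place of SCL6 among them is not given. The DS vs. CK ratio of miR171 with SCL6 was 2.11 times that of the sum (1.23 to 3.63; adjusted p = 0.0272 over 6 two-sided Fisher exact tests). In RW vs. DS it was 0.548 times that of the sum (0.327 to 0.919; adjusted p = 0.0520 in the exact test). AFB2, an auxin receptor cut under miR393, carried 1990 of the 3629 CK reads of the sum. Without AFB2, which was left out after the data had been seen, the DS vs. CK ratio of SCL6 was 1.75 times that of the sum (1.02 to 3.02; adjusted p = 0.108 in the exact test) and no longer passed.

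For miR169 with the NF-YA genes no difference from the other modules passed. Its ratio was 1.79 times that of the sum in DS vs. CK (0.812 to 3.93; adjusted p = 0.190 in the Fisher exact test), 1.13 times in RW vs. DS (0.591 to 2.26; adjusted p = 0.759) and 2.02 times in RW vs. CK (1.06 to 4.04; adjusted p = 0.0520). Without AFB2 the RW vs. CK value was 1.87 times (0.976 to 3.74; adjusted p = 0.108 in the Fisher exact test). These values include the reads of ppe-MIR169i-p5_2ss17GT19TG on NFYA1. miR169 with NF-YA and miR171 with SCL6 were also compared with each other. The RW vs. DS ratio of miR169 was 2.07 times that of miR171, which did not pass (adjusted p = 0.246 over 3 Fisher exact tests).

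**Figure D3:**
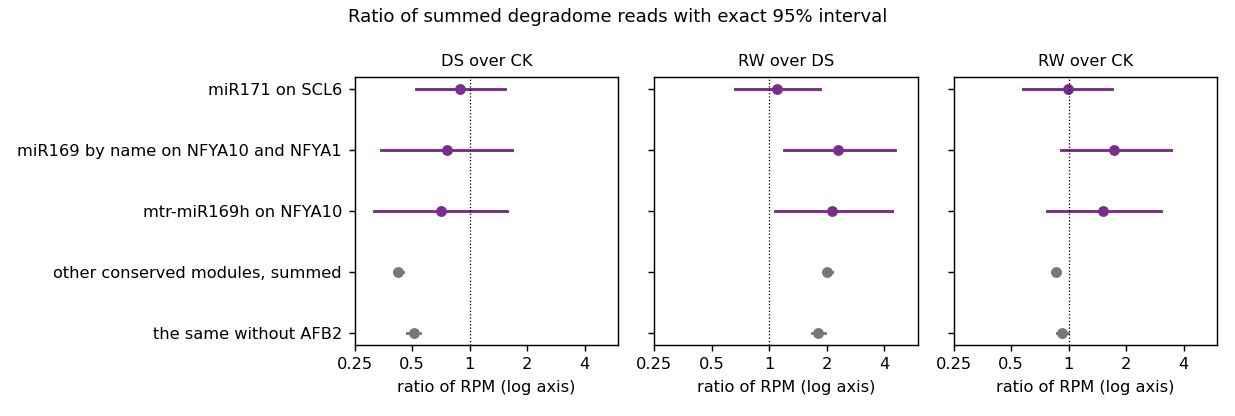
Ratios of summed RPM (x axis, log scale) in DS over CK, RW over DS and RW over CK for the member modules (purple) and for the other conserved modules (grey), with exact 95% intervals from 1 library per condition. In DS over CK the point of miR171 on SCL6 was at 0.893 and that of the other modules at 0.424, or 0.511 without AFB2.

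Small RNAs with miR171 names were spread over many transcripts outside the GRAS genes. Only gma-miR171c-3p_2ss9TC21AT had SCL6 as its first transcript, with 39.7% of its 224 reads. Its next was petC, the Rieske iron-sulfur protein of the cytochrome b6-f complex, with 74 reads. The soybean form without substitutions, gma-miR171c-3p, had no GRAS entry, and 205 of its 283 reads were on PETH, annotated as leaf ferredoxin-NADP reductase. SCL6 held 5 of the 48 reads of mtr-miR171d, whose first transcript, GAD, held 9. The 4 small RNAs named for the miR171c-5p, miR171j-5p, miR171l-5p and miR171m forms had no GRAS entry.

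**Figure D4:**
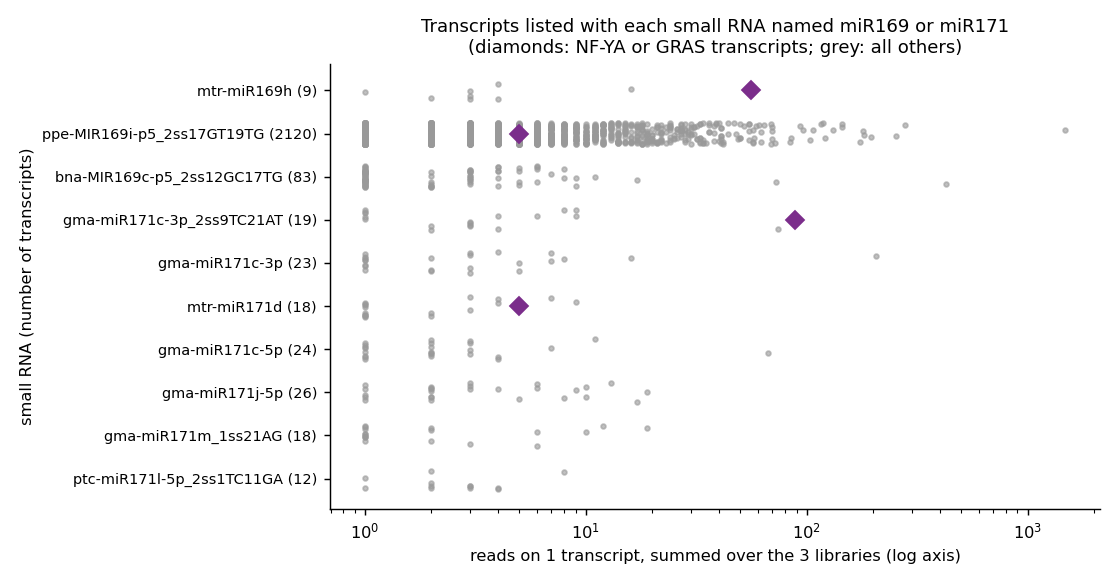
Reads on each transcript summed over the 3 libraries (x axis, log scale) for the small RNAs with miR169 or miR171 names (y axis, with their number of transcripts), with diamonds for the NF-YA or GRAS transcript of that family and grey points for all others. NFYA10 with 56 reads and SCL6 with 89 reads stood first in mtr-miR169h and gma-miR171c-3p_2ss9TC21AT, while NFYA1 with 5 reads lay among the 2120 transcripts of ppe-MIR169i-p5_2ss17GT19TG.

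Among the other transcripts of the miR171 names, 8 of 131 pairs were tested in DS vs. CK, of which 2 rose, 1 fell and 5 did not pass, against 21.6% of all tested pairs that passed in either direction. PUMP5, a mitochondrial uncoupling protein, had 46 reads in DS, against 7 in CK (4.98, 2.23 to 13.1; adjusted p = 7.7e-05 in the exact test). CRK2, annotated as a cold-responsive protein kinase, was the other that rose, with 11 reads in DS and 0 in CK, and it reached the minimum of 10 reads through DS alone. PETH had 49 reads in DS, against 71 in CK (0.523, 0.356 to 0.763; adjusted p = 0.00411 in the exact test), a call that was lost with mapped reads (0.759) or without scaling (0.690). The median log2 ratio of the 8 pairs was 0.34, with a pseudocount of 1 read, against 0.09 for all tested pairs. In RW vs. DS, 9 pairs were tested and PETH rose while PUMP5 fell, and in RW vs. CK none of 8 passed (petC had the lowest adjusted p, 0.105 in the exact test), though PETH did with mapped reads (1.54). For the other transcripts of the miR169 names, 219 of 2194 pairs were tested in DS vs. CK, and 27 rose, 5 fell and 187 did not pass, against the same 21.6% of all pairs. In RW vs. DS 14 rose and 24 fell of 260 (19% of all pairs passed), and in RW vs. CK 11 rose and 5 fell of 207 (14.9%).

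The partners of these factors were thinly covered. The other subunits of nuclear factor Y had 4 transcripts in the table, none with 10 reads in any comparison, and together 3 reads in RW, 8 in DS and 2 in CK. NFYB3 had 2 reads in RW, 4 in DS and 2 in CK. A further transcript annotated as nuclear factor Y B subunit 4, which the list's words did not match and which was noticed in the data, had 1 read in RW, 9 in DS and 2 in CK. The DELLA and gibberellin list had 3 transcripts, with 2 reads in RW, 2 in DS and 4 in CK. Of these, GID1C, a gibberellin receptor, had 0, 2 and 3 reads in the same order of libraries, and SLY1 matched by symbol but is annotated as a transport protein. SHORT-ROOT, a GRAS protein that the rule's words did not match, had 2 transcripts, with 1 read in RW and 6 in DS in all.

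Chlorophyll synthesis, which the SCL6 group restrains in Arabidopsis, had 13 transcripts, with 95 reads in RW, 91 in DS and 75 in CK. None of the 3 tested in DS vs. CK passed, nor of the 4 in RW vs. DS and the 4 in RW vs. CK, against 20.2%, 18.4% and 13.3% of all tested transcripts, too few to read as a difference. The median log2 ratio in DS vs. CK was -0.64, against 0.09 for all tested transcripts. CHLD, a subunit of magnesium chelatase, had 6 reads in DS, against 15 in CK (adjusted p = 0.0603 in the exact test), and CHLH, its large subunit, had 53 in DS, against 30 in CK (adjusted p = 0.417). Of the miRNA machinery, 9 transcripts were in the table and 2 were tested in each comparison. AGO1, the main slicer of plant miRNAs, was the only one that passed, with 1 read in DS, against 13 in CK (0.0583, 0.00137 to 0.388), and it reached the minimum of 10 reads through CK alone. AGO1 had 6 reads in RW, against 13 in CK (adjusted p = 0.243 in the exact test).

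The pairs most like the 2 main modules in their spread over the libraries were sought among 614 non-member pairs with at least 20 reads, by the Euclidean distance between the shares of RPM in the 3 libraries. SCL6 with miR171 had shares of 34.3% in RW, 31.0% in DS and 34.7% in CK. Nearest to it were an uncharacterized transcript with miR169 names (distance 0.0073), NUP214 with miR5230 (0.0086) and HDR1 with miR393 (0.010). NFYA10 with miR169 had shares of 46.9% in RW, 22.0% in DS and 31.1% in CK. Nearest to it were RD21A, a cysteine protease, with miR396 (0.0076), RPL13B, a ribosomal protein, with miR5213 (0.013) and an F-box protein with miR5282 (0.014). With 3 libraries these distances are descriptions only.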

How the data were processed

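The authors made degradome libraries of leaf RNA, sequenced them as single-end Illumina reads, and ran ACGT101-DEG, built on CleaveLand4, with their own Trinity transcripts as reference. The deposited values are RPM relative to the table's own total, so whole reads were recovered from the steps between values (100% of values above 0 came out whole, within 0.01 of a read). They are not scaled to the whole library. Cleavage positions were not used here. Rows of a miRNA family on a transcript were summed as pairs (miR156 with miR157, miR165 with miR166, miR170 with miR171, and miR482 with miR2118 merged).

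For pairs with at least 10 reads over 2 libraries, the split of the reads was set against the split of the table totals in an exact conditional binomial test (two-sided, Benjamini-Hochberg adjusted over all such pairs, threshold 0.05). Ratios carry exact conditional 95% intervals, shares Clopper-Pearson intervals, and levels Poisson intervals. Transcripts were tested in the same way. A ratio against 0 used a floor of 3 reads in that library (101 RPM in RW, 91.7 in DS and 121 in CK). The tests were checked on simulated reads with counting error only. That check does not cover variation between libraries, reads counted repeatedly, or changes in pairs with few reads. Python 3.11.15 with NumPy 2.4.6, pandas 2.3.3, SciPy 1.17.1 and matplotlib 3.10.9 was used.

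The text names every entry of miR169 on NF-YA and of miR171 on GRAS, every transcript called NFYA1, NFYA10, SCL6 or SCL15, and other member transcripts with at least 10 reads over the 3 libraries, and it adds the remaining ones by count. The members and lists were chosen with earlier results of these data known. Other scalings, read minimums, fold limits and pair definitions were tried as alternatives. No miRNA or transcript sequence was used here.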

Additional observations from a re-analysis of the deposited data

How the results depend on the processing

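No paired analysis was possible because each condition had 1 library, and for the same reason no library could be left out within a group. Compared with scaling to the table, scaling to mapped reads multiplied every ratio by 1.45 in DS vs. CK, 1.06 in RW vs. DS and 1.54 in RW vs. CK (log2 shifts of 0.54, 0.08 and 0.62), and no scaling multiplied them by 1.32, 0.905 and 1.19. The sum of miR169 on the NF-YA genes in RW vs. CK, 1.73 in the report, became 2.66 (1.40 to 5.31) with mapped reads and 2.07 (1.08 to 4.12) without scaling, and both intervals then left out 1. In RW vs. DS it was 4.42 (0.437 to 217.6) without NFYA10, on 4 reads in RW and 1 in DS, where few reads are left, and 2.13 with mtr-miR169h alone, an alternative chosen after seeing the data. Without NFYA10 the RW vs. CK sum was at least 1.12 against the floor (exact lower limit 0.553), on 4 reads in RW and 0 in CK, and the DS vs. CK sum could not be computed, because both libraries were at or under 3 reads, and miR171 had no GRAS transcript left without SCL6. With mapped reads, 1 member pair passed in RW vs. CK (NFYA10, 2.32), against 0 with the table totals. Counted as apart at 1.5-fold, 2 pairs were apart in DS vs. CK and 1 in RW vs. CK, and with at least 20 reads 0 were apart in DS vs. CK and 1 in RW vs. DS. The shares of all pairs with mapped reads or under these limits are not given, so nothing is read from these member counts. The ratio of miR171 with SCL6 to the other modules in DS vs. CK was 1.75 without AFB2, which no longer passed. The sums of miR169 and miR171 in DS vs. CK, 0.758 and 0.893, were 1.10 and 1.30 with mapped reads, with intervals that included 1 in each case. NFYA10 with all its entries also passed with mapped reads, in RW vs. DS (2.34, adjusted p = 0.0447) and RW vs. CK (2.41, adjusted p = 0.0263, both in the exact test). Depth limits these results, since 3 reads, the count that a 0 allows, were 101 RPM in RW, 91.7 in DS and 121 in CK.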
